A study of Capra hircus with 6 samples.

Results

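The genes described here encode mitochondrial ribosomal proteins. They were taken as every row of the deposited tables whose identifier begins with MRPL followed by a number, or with MRPS followed by a number and at most one letter from A to C. This gave 77 of 16285 genes, and all 77 passed the filter on low values, which left 10761 genes tested. Expression was measured by RNA sequencing in adipose mesenchymal stem cells of the goat (Capra hircus), fat-derived stromal cells able to turn into adipocytes when induced. The 3 libraries labelled YAP carried the genotype overexpressing YAP, the 3 Control libraries were labelled with the genotype WT, with no word on whether they carried an empty vector, and both groups were recorded as treated for adipogenic differentiation. The labels gave neither the promoter that drives YAP nor the origin of the replicates. If these were not independent cultures, the p-values describe technical spread alone. The design text of the series names a TAZ overexpressing line, whereas the sample labels name YAP.

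Mitochondria keep their own ribosome, the mitoribosome, which translates the few messenger RNAs made from mitochondrial DNA into membrane subunits of the respiratory chain and ATP synthase. Its proteins are all encoded in the nucleus, made in the cytosol and imported. The large subunit forms the peptide bond and holds the exit tunnel through which the new chain leaves, and the small subunit holds the messenger RNA and the decoding centre. Some of the proteins descend from bacterial ribosomal proteins and others were added in the mitochondrial lineage. The symbols do not always give the place: in mammals MRPS30 and MRPS18A sit in the large subunit, and MRPS36 belongs to the 2-oxoglutarate dehydrogenase complex. By place, 51 members were counted in the large subunit and 25 in the small subunit, and MRPS36 was kept apart.

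Counted fragments numbered 36966875, 32593380 and 37131015 in the libraries labelled YAP and 34967990, 33871397 and 34594066 in the Control libraries. YAP1 itself averaged 27.4 ± 1.57 FPKM in the libraries labelled YAP and 27.2 ± 1.54 FPKM in the Control libraries (SD, n = 3 each), with a log2 change of 0.01 (SE 0.08, limma adjusted p = 0.95, exact two-sided permutation p = 1, where 0.1 is the smallest p that 3 against 3 libraries allow). Its paralog WWTR1 (TAZ) fell by 0.56 on the log2 scale (limma adjusted p = 0.0013). LATS2, the kinase that phosphorylates both, averaged 8.66 ± 0.09 FPKM in the libraries labelled YAP and 7.64 ± 0.62 FPKM in the Control libraries (limma adjusted p = 0.17, and 0.047 after median-of-ratios scaling). YAP1 mRNA was therefore not higher, and directions are given for libraries by their label. The 8 mesenchymal stromal markers summed to 10372 to 10979 FPKM in the libraries labelled YAP and to 7171 to 7613 FPKM in the Control libraries, but they did not move together. The collagen genes COL1A1 and COL1A2, which make up most of the sum, rose, as did PDGFRB and THY1, whereas ENG and NT5E fell, with log2 changes from -0.88 to 0.83. Of 6 measured adipocyte markers 1 passed the filter, and PPARG had 2 to 4 reads per library. Their sum was 9.14 to 11.03 FPKM in the libraries labelled YAP and 17.2 to 19.6 FPKM in the Control libraries. The 6 leukocyte markers summed to 20.4 to 20.9 FPKM in the libraries labelled YAP and 12.9 to 15.9 FPKM in the Control libraries, and 4 of them had at most 3 reads in every library. The other two went opposite ways, with CD14 higher (log2 change 0.90) and CD68 lower (-0.87). The 4 endothelial markers summed to at most 0.53 FPKM, and the part of these cell types in the results below was not tested.

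Every mitochondrial ribosomal protein gene that passed the test was lower in the libraries labelled YAP. FPKM is fragments scaled to gene model length and to the fragments counted in the library, so levels can be compared between genes. Log2 changes were computed from FPKM + 1, so the change of low genes is understated. Of the 77 members, 24 fell and 0 rose at limma adjusted p 0.05, and 53 did not pass the test. At an unadjusted p of 0.05 the counts were 39 lower and 0 higher, beside 3243 lower and 1647 higher of all 10761 tested genes. Among all tested genes 35.9% were called, 23.0% lower and 12.9% higher, so the share of members that fell, 31.2%, stood above the background share, and the share that rose stood below it. The median log2 change was -0.21 over the members and -0.10 over all tested genes, and 68 of the 77 estimates were below 0. The count changed with the libraries kept: it was 10 without YAP replicate 1, 9 without YAP replicate 3 and 12 without Control replicate 2. It was 17 without Control replicate 1 and 33 without YAP replicate 2 or without Control replicate 3. Over all tested genes 3868 were called, and 2290 to 3515 with 1 library left out.

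The same comparison was made after median-of-ratios scaling, which divides each library by the median ratio of its genes to their mean over libraries. Scaling moved the median of all genes by 0.08 upward on the log2 scale. After it 15 members were lower and 1 higher at an unadjusted p of 0.05, beside 2118 lower and 2254 higher of all 10761 tested genes. At limma adjusted p 0.05, 8 members fell and 0 rose. That share, 10.4%, was below the 13.5% of all tested genes that were lower, while 16.1% of all tested genes were higher and 29.6% were called in either direction. All 8 had also been called in the deposited FPKM, and the other 16 members called there had limma adjusted p between 0.052 and 0.24 after scaling. The distance of the members' median from that of all tested genes was -0.11 in the deposited FPKM and -0.10 after scaling. With limma-voom on whole reads recovered from the FPKM steps, scaled the same way, 7 members fell and 0 rose. Of all 10761 tested genes, 1467 were lower and 1771 higher in that fit. After scaling the count was 2 without YAP replicate 1, 3 without YAP replicate 3 and 5 without Control replicate 2. It was 8 without Control replicate 1, 9 without YAP replicate 2 and 12 without Control replicate 3. Counts over all tested genes are not given for these scaled fits, so no background share stands beside them. In bulk RNA, a lower level in every cell and fewer cells with a high level cannot be told apart.

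**Figure D1:**
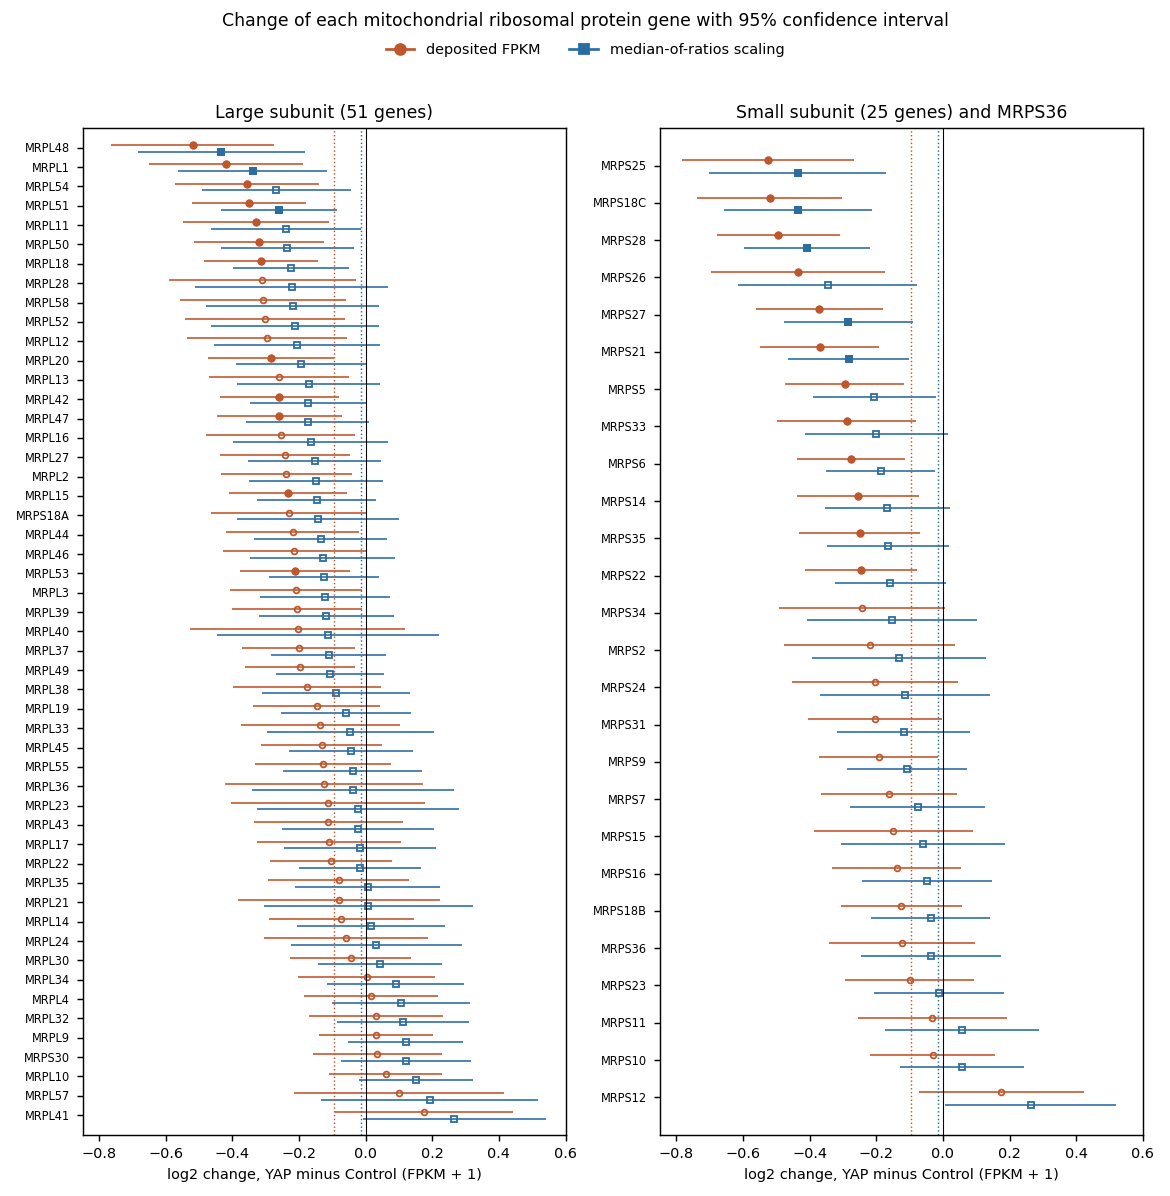
Log2 change (libraries labelled YAP minus Control) of the 51 large subunit genes, the 25 small subunit genes and MRPS36, in deposited FPKM (circles) and after median-of-ratios scaling (squares), with 95% confidence intervals from limma. Filled symbols mark limma adjusted p under 0.05 and dotted lines mark the median of all tested genes. The filled symbols, 24 in the deposited FPKM and 8 after scaling, all lie below 0.

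Small subunit proteins gave 5 of the 8 members called under both scalings. MRPS25, a protein of the mitochondrial lineage, had 24.9, 31.99 and 24.2 FPKM in the libraries labelled YAP, against 39.98, 43.4 and 34.2 FPKM in the Control libraries. All 3 libraries labelled YAP lay below all 3 Control libraries, and the closest pair was YAP replicate 2 and Control replicate 3. Its mean was 31.1% lower (log2 change -0.53, SE 0.12, limma adjusted p = 0.0054). MRPS18C, the member of the S18 family that occupies the bacterial S18 position, had 9.03, 10.5 and 8.68 FPKM in the libraries labelled YAP, against 13.1, 15.5 and 13.2 FPKM in the Control libraries. The groups did not overlap, and the mean fell by 32.4%, the largest percentage among the 77 members (log2 change -0.52, SE 0.10, limma adjusted p = 0.0021). MRPS18C rested on 165 to 268 reads per library, the lowest number of any member in 5 of the 6 libraries. The sources used here do not say how reads shared by related genes were assigned, which leaves the S18 family values uncertain.

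MRPS28, which takes the place of the bacterial S1 protein, had 10.6, 10.6 and 10.5 FPKM in the libraries labelled YAP, against 14.6, 16.7 and 14.7 FPKM in the Control libraries. The libraries labelled YAP were nearly level and well separated from the Control libraries (log2 change -0.49, SE 0.08, limma adjusted p = 0.0010). MRPS27, an RNA-binding protein of the pentatricopeptide repeat family, had 17.6, 17.8 and 17.4 FPKM in the libraries labelled YAP, against 20.6, 24.5 and 24.4 FPKM in the Control libraries. It was 23.9% lower in mean, and Control replicate 1 lay nearest to the other group (log2 change -0.37, SE 0.09, limma adjusted p = 0.0067). MRPS21, the counterpart of bacterial S21, had 19.3, 21.2 and 18.3 FPKM in the libraries labelled YAP, against 25.7, 26.2 and 24.8 FPKM in the Control libraries. Its groups were also apart, with a fall of 23.4% (log2 change -0.37, SE 0.08, limma adjusted p = 0.0049). After scaling, the limma adjusted p of these 5 genes ran from 0.0042 for MRPS28 and 0.0074 for MRPS18C to 0.032 for MRPS27, and the MRPS25 values then overlapped between the groups.

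Large subunit proteins gave the other 3. MRPL48, a protein of the central protuberance, had 10.8, 12.8 and 9.33 FPKM in the libraries labelled YAP, against 14.6, 17.2 and 16.5 FPKM in the Control libraries. The groups did not overlap and the mean was 31.7% lower (log2 change -0.52, SE 0.11, limma adjusted p = 0.0042). MRPL1, the protein of the L1 stalk beside the tRNA exit site, had 4.97, 5.11 and 5.05 FPKM in the libraries labelled YAP, against 6.76, 6.22 and 8.39 FPKM in the Control libraries. It had the lowest mean level of the 77 members, with Control replicate 3 the highest of its 6 values (log2 change -0.42, SE 0.11, limma adjusted p = 0.010). MRPL51, a protein without a bacterial counterpart, had 25.4, 27.1 and 24.9 FPKM in the libraries labelled YAP, against 33.0, 34.9 and 31.6 FPKM in the Control libraries. All its values in the libraries labelled YAP lay below the Control values (log2 change -0.35, SE 0.08, limma adjusted p = 0.0050). The 8 genes kept their calls in the deposited FPKM when each of the 6 libraries was left out in turn. With limma-voom on recovered reads MRPL51 did not pass (limma-voom adjusted p = 0.053). After scaling, MRPS18C and MRPS28 were called in all 6 of those fits, and the other genes of the 8 in 1 to 4 of them.

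**Figure D2:**
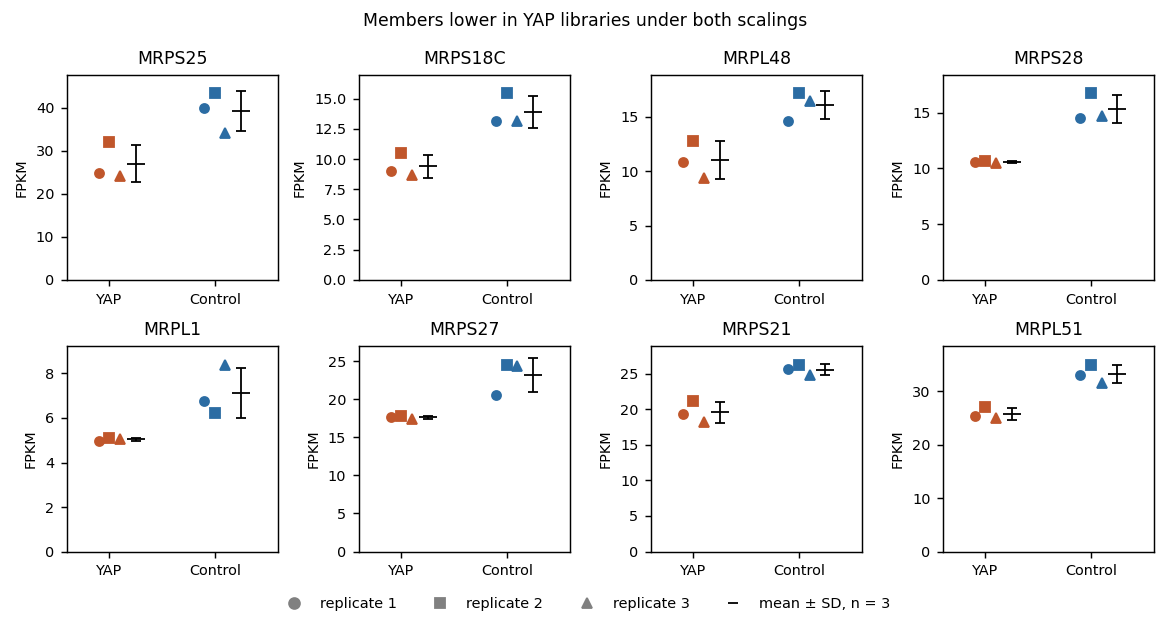
FPKM (axis from 0) of the 8 members lower in the libraries labelled YAP under both scalings, one panel per gene, with one symbol per library and the mean ± SD (n = 3 per group). In every panel the 3 libraries labelled YAP lie below the 3 Control libraries.

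The remaining 16 called members were 14.4% to 27.2% lower in the deposited FPKM and did not pass after scaling. In the small subunit they were MRPS5, MRPS6, MRPS14, MRPS22, MRPS26, MRPS33 and MRPS35. MRPS26 averaged 30.2 ± 2.63 FPKM in the libraries labelled YAP and 41.5 ± 7.09 FPKM in the Control libraries, where replicate 3, at 33.3 FPKM, lay well below the other Control values and close to the 33.1 FPKM of YAP replicate 2 (log2 change -0.43, SE 0.12, limma adjusted p = 0.015). In the large subunit they were MRPL11, MRPL15, MRPL18, MRPL20, MRPL42, MRPL47, MRPL50, MRPL53 and MRPL54. MRPL54 averaged 17.3 ± 1.57 FPKM in the libraries labelled YAP and 22.5 ± 2.32 FPKM in the Control libraries (limma adjusted p = 0.016). MRPL11, which with MRPL10 and MRPL12 forms the stalk that recruits translation factors, averaged 40.5 ± 4.49 FPKM in the libraries labelled YAP and 51.1 ± 5.04 FPKM in the Control libraries (limma adjusted p = 0.024). MRPL50 averaged 12.6 ± 0.96 FPKM in the libraries labelled YAP and 16.0 ± 1.11 FPKM in the Control libraries (limma adjusted p = 0.016). With 1 library left out, MRPS26 stayed past the threshold in 4 of 6 fits, MRPL54 and MRPL50 in 3 and MRPL11 in 2.

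Members set apart by role or by name follow. MRPL12, the L7/L12 stalk protein that also binds the mitochondrial RNA polymerase, had 47.4, 52.9 and 44.7 FPKM in the libraries labelled YAP, against 63.7, 66.2 and 49.9 FPKM in the Control libraries. The groups overlapped between YAP replicate 2 and Control replicate 3 (log2 change -0.30, limma adjusted p = 0.055). MRPL10, the base of that stalk, had 36.6, 41.2 and 36.7 FPKM in the libraries labelled YAP, against 36.7, 36.9 and 36.0 FPKM in the Control libraries (log2 change 0.06, 95% confidence interval -0.11 to 0.23, limma adjusted p = 0.56). MRPL58, a peptidyl-tRNA hydrolase that rescues stalled mitoribosomes, averaged 40.7 ± 6.12 FPKM in the libraries labelled YAP and 50.5 ± 5.43 FPKM in the Control libraries (limma adjusted p = 0.054). Within the S18 family, MRPS18A averaged 17.2 ± 2.15 FPKM in the libraries labelled YAP and 20.4 ± 2.29 FPKM in the Control libraries (limma adjusted p = 0.12). MRPS18B averaged 19.3 ± 1.07 FPKM in the libraries labelled YAP and 21.1 ± 1.31 FPKM in the Control libraries (limma adjusted p = 0.26). The differences between MRPS18C and these relatives, and between the stalk proteins, were not tested.

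The estimates furthest above 0 belonged to MRPL41, a large subunit protein, and MRPS12, which lines the decoding centre. MRPL41 had 64.5, 82.6 and 62.7 FPKM in the libraries labelled YAP, against 66.5, 66.4 and 52.2 FPKM in the Control libraries (log2 change 0.18, 95% confidence interval -0.09 to 0.44, limma adjusted p = 0.28). MRPS12 averaged 23.9 ± 3.13 FPKM in the libraries labelled YAP and 21.1 ± 2.65 FPKM in the Control libraries (log2 change 0.18, limma adjusted p = 0.25). Both sets of values overlapped. These genes, MRPL10 and MRPL58 were chosen after their values were seen. MRPS30, one of the proteins named for the wrong subunit, stood at 13.8 ± 0.72 FPKM in the libraries labelled YAP and 13.5 ± 1.13 FPKM in the Control libraries, and its interval ran from -0.16 to 0.23 on the log2 scale. MRPS36 stood at 14.9 ± 1.25 FPKM in the libraries labelled YAP and 16.4 ± 1.84 FPKM in the Control libraries (limma adjusted p = 0.36). In 7 of the 77 members, none of them called, the sign of the estimate changed with scaling.

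By place, 12 of 51 large subunit members fell (23.5%) and 12 of 25 small subunit members fell (48.0%), beside 23.0% of all tested genes, and 0 rose in either subunit, also at an unadjusted p of 0.05. After scaling 3 of 51 large subunit members (5.88%) and 5 of 25 small subunit members fell, beside 13.5% of all tested genes. With limma-voom the counts were 2 and 5, with 0 higher in each, beside 1467 lower and 1771 higher of all 10761 tested genes. The medians lay closer together than the counts. They were -0.20 in the large subunit and -0.24 in the small subunit in the deposited FPKM, and -0.11 and -0.15 after scaling. Members are not replicates, so the subunits were described and not tested. The large subunit count fell to 5 without YAP replicate 1, to 3 without YAP replicate 3, to 7 without Control replicate 1 and to 5 without Control replicate 2, and it was 20 without YAP replicate 2 or without Control replicate 3. The small subunit count fell to 5 without YAP replicate 1, to 6 without YAP replicate 3 and to 7 without Control replicate 2. It was 10 without Control replicate 1 and 13 without YAP replicate 2 or without Control replicate 3. In these fits 2290 to 3515 of all 10761 tested genes were called in either direction.

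Summed FPKM gave a view of each subunit library by library. The 51 large subunit genes summed to 1693, 1942 and 1622 FPKM in the libraries labelled YAP, against 1977, 2114 and 1776 FPKM in the Control libraries. Here YAP replicate 2 lay above Control replicate 3, so the groups overlapped. The 25 small subunit genes summed to 569.6, 649.7 and 551.5 FPKM in the libraries labelled YAP, against 706.4, 735.6 and 650.9 FPKM in the Control libraries. In the deposited FPKM the small subunit sums did not overlap between groups, although YAP replicate 2 and Control replicate 3 were nearly level. After median-of-ratios scaling they were 592.8, 669.9 and 566.0 in the libraries labelled YAP, against 679.9, 721.9 and 626.4 in the Control libraries. YAP replicate 2 then lay above Control replicate 3, so the groups overlapped. The ratio of the small to the large sum, which no scaling of a whole library can change, was 0.336, 0.334 and 0.340 in the libraries labelled YAP, against 0.357, 0.348 and 0.366 in the Control libraries. It was lower in all 3 libraries labelled YAP than in any Control library. This ratio shows unequal change of the sums and was not tested.

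**Figure D3:**
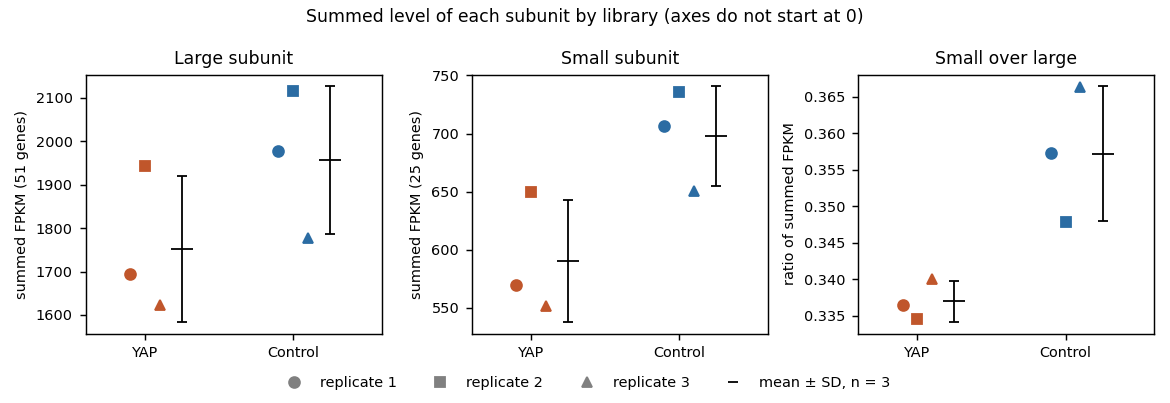
Summed FPKM of the large subunit genes, of the small subunit genes, and the ratio of the small to the large sum, by library, with the mean ± SD (n = 3 per group). The axes do not start at 0. The ratio is 0.334 to 0.340 in the libraries labelled YAP and 0.348 to 0.366 in the Control libraries, without overlap.

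Members were also split by origin. Of 30 large subunit genes with a bacterial counterpart 6 fell, and of 21 without one 6 fell, with median log2 changes of -0.13 and -0.21. Of 15 small subunit genes with a bacterial counterpart 6 fell, and of 10 without one 6 fell, with medians of -0.20 and -0.25. The share over all tested genes was 23.0%. After scaling the counts were 1, 2, 3 and 2 in the same order, beside 13.5% of all tested genes. MRPS17, which belongs to the small subunit with a bacterial counterpart, was not analysed here.

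The 77 genes spanned a 37.2-fold range of mean level. The median member had a mean of 26.9 FPKM, against 9.65 FPKM for the median tested gene, and 47 members lay between 20 and 60 FPKM. MRPL17 was the highest, at 217 ± 21.3 FPKM in the libraries labelled YAP and 235 ± 25.1 FPKM in the Control libraries (limma adjusted p = 0.41). MRPL57 stood at 89.8 ± 13.6 FPKM in the libraries labelled YAP and 84.3 ± 17.0 FPKM in the Control libraries, and MRPL23, a tunnel exit protein, at 82.8 ± 14.4 FPKM in the libraries labelled YAP and 89.5 ± 13.6 FPKM in the Control libraries. The spread between replicates of MRPL57 and MRPL23 was larger than their difference from each other. In the small subunit MRPS15, MRPS34 and MRPS16 had the highest means, at 43.1 ± 5.55, 36.4 ± 4.65 and 35.9 ± 2.48 FPKM in the libraries labelled YAP and 47.9 ± 5.71, 43.3 ± 5.57 and 39.7 ± 3.52 FPKM in the Control libraries. Apart from the called MRPL1 and MRPS18C, the lowest were MRPL32, MRPL44, MRPS9 and MRPS31, and none of these 4 passed the test. Their means were 7.73 ± 0.65, 9.84 ± 1.06, 10.4 ± 0.56 and 11.2 ± 0.93 FPKM in the libraries labelled YAP, against 7.54 ± 0.48, 11.6 ± 0.22, 11.997 ± 0.25 and 13.0 ± 0.98 FPKM in the Control libraries. Across the 77 genes, which share libraries and are not independent, Spearman's rho between the group means was 0.98. The change was nearly unrelated to the mean level (rho 0.12) and to gene model length (rho 0.02).

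Members tended to be high or low together within a library. YAP replicate 2 was the highest library of its group for 69 of 77 members and Control replicate 2 for 48. Likewise YAP replicate 3 was the lowest of its group for 56 members and Control replicate 3 for 54. The summed FPKM of all genes had the same order. It was highest in YAP replicate 2 (456770) and Control replicate 2 (469734), and lowest in YAP replicate 3 (424076) and Control replicate 3 (438578). The same counts were not made over all tested genes, so the pattern was not shown to be particular to the members. The members' share of all summed FPKM was 0.523%, 0.571% and 0.516% in the libraries labelled YAP, against 0.600%, 0.610% and 0.557% in the Control libraries. YAP replicate 2 lay above Control replicate 3, and the other libraries labelled YAP lay below all Control libraries. For 33 members all 3 libraries labelled YAP lay below all 3 Control libraries, 42.9% of the 77, beside 31.6% of all tested genes, and for 0 members they lay above, beside 16.7%. After scaling 21 members lay lower, 27.3% of the 77 beside 20.9% of all tested genes, and 2 lay higher, MRPL9 and MRPL10, 2.60% beside 23.0%.

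Of 5 tested mitoribosome proteins that carry other names, 2 fell and 0 rose (0 higher also at an unadjusted p of 0.05 and with limma-voom). Among all tested genes 23.0% were lower and 12.9% higher. PTCD3, a pentatricopeptide repeat protein of the small subunit, had 5.82, 4.69 and 5.53 FPKM in the libraries labelled YAP, against 8.46, 7.96 and 9.35 FPKM in the Control libraries (log2 change -0.60, SE 0.10, limma adjusted p = 8.9e-04). AURKAIP1, also of the small subunit, had 48.8, 54.0 and 44.8 FPKM in the libraries labelled YAP, against 70.6, 78.6 and 58.1 FPKM in the Control libraries (log2 change -0.48, SE 0.11, limma adjusted p = 0.0069). Neither set overlapped, and both genes also passed after scaling. DAP3, CHCHD1 and GADD45GIP1 did not pass.

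Among 15 tested mitochondrial translation factors 3 fell and 1 rose, beside 23.0% lower and 12.9% higher among all tested genes. The gene that rose was TSFM, the exchange factor that recharges the elongation factor TUFM, with 62.0, 61.1 and 63.1 FPKM in the libraries labelled YAP, against 33.2, 32.9 and 30.01 FPKM in the Control libraries (log2 change 0.93, SE 0.07, limma adjusted p = 3.4e-06). It was 93.9% higher in mean, and its groups were far apart. GFM1, the translocase of the elongation step, had 10.1, 9.97 and 11.97 FPKM in the libraries labelled YAP, against 15.0, 15.0 and 16.6 FPKM in the Control libraries (log2 change -0.51, SE 0.09, limma adjusted p = 0.0016). Both passed after scaling, whereas the RNA stability factors LRPPRC (log2 change -0.39, limma adjusted p = 0.040) and SLIRP (-0.30, limma adjusted p = 0.042) did not. TUFM itself averaged 66.0 ± 5.41 FPKM in the libraries labelled YAP and 75.4 ± 3.11 FPKM in the Control libraries (limma adjusted p = 0.091).

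Of 26 tested assembly factors of the mitoribosome 5 fell (19.2%) and 1 rose (3.85%), both below the shares over all tested genes. After scaling 2 fell (7.69%) and 1 rose (3.85%), beside 13.5% lower and 16.1% higher among all tested genes. MTERF3, which acts in large subunit assembly, fell by 0.41 on the log2 scale (limma adjusted p = 0.0034) and FASTKD2, which binds the large ribosomal RNA, fell by 0.37 (limma adjusted p = 0.0092). RCC1L fell by 0.35 (limma adjusted p = 0.017) and did not pass after scaling. MTERF4, which brings an RNA methyltransferase to the large subunit, averaged 15.6 ± 0.40 FPKM in the libraries labelled YAP and 11.9 ± 0.23 FPKM in the Control libraries (log2 change 0.37, limma adjusted p = 0.0035). Of 20 aminoacyl-tRNA synthetase and amidotransferase genes of mitochondria 1 fell and 1 rose, beside 23.0% lower and 12.9% higher among all tested genes. After scaling 0 fell and 2 rose, beside 13.5% and 16.1% of all tested genes. At an unadjusted p of 0.05 after scaling 1 was lower and 2 were higher, and with limma-voom 0 were lower and 2 higher. SARS2, the seryl-tRNA synthetase, rose by 0.43 (limma adjusted p = 0.0040) and GATB, an amidotransferase subunit, fell by 0.30 (limma adjusted p = 0.019), a call lost after scaling. WARS2, the tryptophanyl-tRNA synthetase, passed after scaling alone (log2 change 0.30, limma adjusted p = 0.025).

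The respiratory chain and ATP synthase genes, most of whose complexes contain products of the mitoribosome, gave a share of falls close to the background. Of 58 tested, 15 fell (25.9%) and 0 rose, beside 23.0% lower and 12.9% higher among all tested genes. At an unadjusted p of 0.05 1 was higher, as was 1 with limma-voom. Their median log2 change was -0.18, beside -0.10 over all tested genes. After scaling 7 fell (12.1%) and 1 rose, NDUFA1, a complex I subunit. The shares over all tested genes were then 13.5% lower and 16.1% higher. ATP5G1, a gene for the membrane ring of ATP synthase, fell by 0.51 (limma adjusted p = 0.0017), and NDUFA4 (-0.40), ATP5B (-0.36) and NDUFA9 (-0.31) fell as well. Of 77 tested cytosolic ribosomal protein genes 3 fell (3.90%) and 0 rose, with 0 higher at an unadjusted p of 0.05 and with limma-voom. Their median log2 change was -0.13, and 75 of 77 estimates were below 0. After scaling 1 fell (1.30%) and 0 rose, the median was -0.04 and 61 estimates were below 0. Those that fell were RPL36A (-0.36) and the ribosomal protein-like genes RPL7L1 (-0.34) and RPS27L (-0.33), and RPL36A and RPS27L did not pass after scaling (limma adjusted p = 0.089 and 0.068). The difference between these lists and the mitochondrial ribosomal protein genes was not tested.

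**Figure D4:**
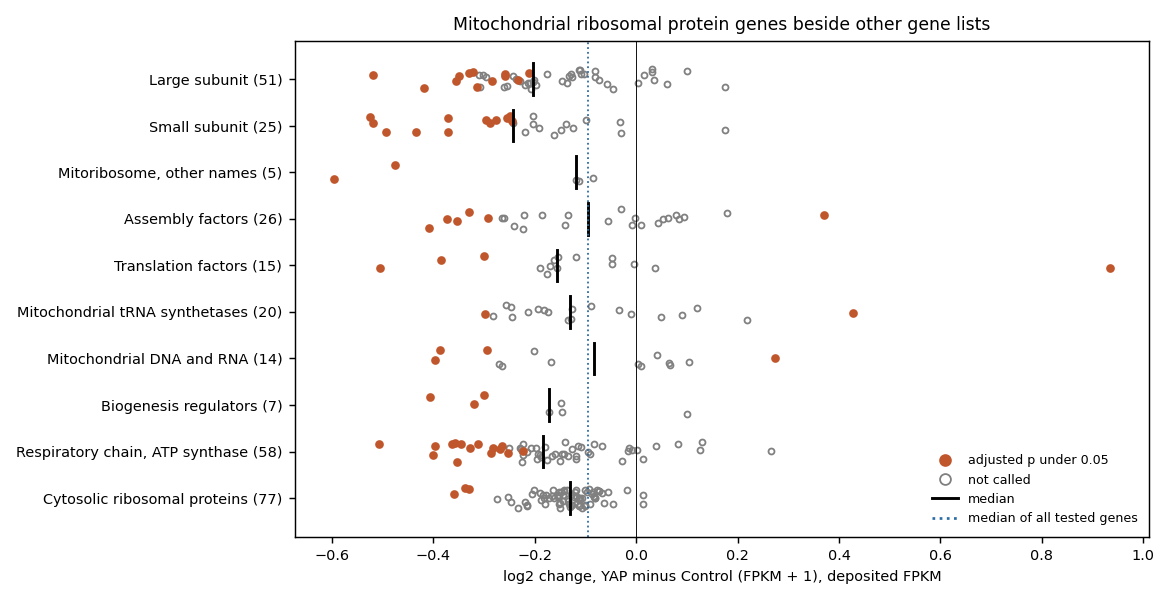
Log2 change (libraries labelled YAP minus Control, deposited FPKM) of each tested gene of the 2 mitoribosome subunits and 8 other lists, with the number of tested genes in brackets. Filled points have limma adjusted p under 0.05, bars mark list medians and the dotted line marks the median of all tested genes at -0.10. TSFM, at 0.93, lies furthest to the right.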

How the data were processed

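Per the labels' protocols, TRIzol was used for extraction and the VAHTS Universal V6 kit for libraries. Tools named in the submitters' processing notes are HISAT2, HTSeq and fastp, and the sources used here state no version, genome build, annotation or strand setting. Expression is in FPKM, as deposited by the authors in 2 tables. A further 6 value columns match no sample by name and enter no result here. All 77 member symbols matched RefSeq's table for ARS1.2, used for names alone.

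A gene was tested if 3 or more libraries reached 1 FPKM. The values were fitted as log2(FPKM + 1) with limma 3.58.1 in R 4.3.3 (variance trend, Benjamini-Hochberg over all tested genes, two-sided, threshold 0.05). Intervals are 95% limma intervals. Whole reads were recovered from the FPKM steps for all 15958 genes above 0 (largest deviation 0.02 reads), and each member's value rested on 165 to 8337 reads. The shortest gene model length that gave whole reads was taken. For genes found in few libraries such a length almost always exists, so recovery is no check there and their reads can be understated. Replicates differed by more than counting noise (chi-square per gene 7.92 to 31.9), so all 6 libraries were kept. Members and lists were chosen with earlier results of these data known. Genes named are the 6 largest called falls and rises per subunit, the 3 highest and 3 lowest means, members set apart by place or role, and up to 4 called genes per list. MRPL41, MRPS12, MRPL10, MRPL58 and genes named with a count of 5 or fewer were picked with their values in view. Other settings tried were no filter, a pseudocount of 0.1, median-of-ratios scaling, quantile normalization, a block on replicate number, a constant prior variance and leaving out each library. Chosen after seeing the data were limma-voom on the recovered reads with median-of-ratios factors, and leaving out libraries after scaling.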

Additional observations from a re-analysis of the deposited data

How the results depend on the processing

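The count of 24 members, all lower, moved with scaling, with the replicate block and with the libraries kept. It was 8 after median-of-ratios scaling, 15 after quantile normalization and 7 with limma-voom on recovered reads with median-of-ratios factors, and it stayed between 22 and 24 with a pseudocount of 0.1, without a filter and without a variance trend. Leaving out 1 library gave 9 to 33 members in the deposited FPKM and 2 to 12 after median-of-ratios scaling. For the scaled fits no count over all tested genes is given beside it. The large subunit count of 12 was 3 after median-of-ratios scaling and 2 with limma-voom, and 3 to 20 with 1 library left out. The small subunit count of 12 was 5 after median-of-ratios scaling, 7 after quantile normalization, 5 with limma-voom and 5 to 13 with 1 library left out. The cause of these shifts was not tested. The small minus large difference of medians was -0.04 on the log2 scale, between -0.02 and -0.06 in all fits. The count of 3868 genes over the whole table was 3189 after median-of-ratios scaling, 3549 after quantile normalization and 3238 with limma-voom. With 1 library left out of the deposited FPKM it was 2290 to 3515. The log2 change of YAP1 was -0.028 to 0.054 with 1 library left out and changed sign without Control replicate 1 (-0.028), YAP replicate 1 (-0.018) or YAP replicate 3 (-0.014).

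The replicate numbers paired the libraries only in part. Deviations from the group means correlated at -0.02, 0.59 and 0.60 for the pairs numbered 1, 2 and 3. YAP replicate 2 with Control replicate 3 gave -0.62, and YAP replicate 3 with Control replicate 2 gave -0.56. YAP replicate 1 correlated best with Control replicate 3 (0.14). The main fit does not use the replicate numbers, and whether libraries of the same number shared a batch was not tested. With the replicate block 45 members were called, 44 lower and 1 higher (MRPS12), with 27 lower in the large subunit and 17 in the small subunit. The members' share called in either direction was then 58.4%, beside 51.8% of all tested genes. Shares by direction over all tested genes are not given for this fit.

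Beside the 7 members whose sign changed with median-of-ratios scaling, the estimates of 5 uncalled members named in the text changed sign. MRPL17 was 0.011 after quantile normalization. With 1 library left out MRPL57 was -0.066 (without Control replicate 3) to 0.23 and -0.018 without YAP replicate 2. MRPL23 was -0.24 to 0.0070 (without YAP replicate 3). MRPL32 was -0.030 (without YAP replicate 1) to 0.070 and -0.011 without Control replicate 2. MRPS30 was -0.032 (without Control replicate 3) to 0.071 and -0.0013 without YAP replicate 2. Under 13 alternatives 767 values were taken for 59 named genes, without YAP1, whose sign changes are given above. Of these values 652 kept direction and side of the threshold, 89 lost a call, 18 gained one and 8 changed sign. The planned TMM factors for limma-voom were replaced by median-of-ratios factors after their result was known, and that fit is not reported.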

Other observations

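Upstream of the mitoribosome, 14 genes of mitochondrial DNA maintenance, transcription and RNA processing were tested, and 3 fell (21.4%) and 1 rose (7.14%). Among all tested genes 23.0% were lower and 12.9% higher, so the share that fell was near the background. SUPV3L1, the helicase of the mitochondrial RNA degradosome, averaged 6.33 ± 0.26 FPKM in the libraries labelled YAP and 8.61 ± 0.83 FPKM in the Control libraries (log2 change -0.39, limma adjusted p = 0.0075). TRMT10C, a subunit of mitochondrial RNase P, averaged 6.84 ± 0.25 FPKM in the libraries labelled YAP and 9.37 ± 1.12 FPKM in the Control libraries (log2 change -0.40, limma adjusted p = 0.0090). TFB2M, a transcription factor of mitochondrial DNA, fell by 0.29 (limma adjusted p = 0.030), a call lost after median-of-ratios scaling. PNPT1, the exonuclease that works with SUPV3L1, averaged 12.9 ± 1.01 FPKM in the libraries labelled YAP and 10.5 ± 0.79 FPKM in the Control libraries (log2 change 0.27, limma adjusted p = 0.036).

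Of 7 tested regulators of mitochondrial biogenesis 3 fell and 0 rose (0 higher also at an unadjusted p of 0.05 and with limma-voom). Among all tested genes 23.0% were lower and 12.9% higher. After scaling 1 of the 7 fell (14.3%), beside 13.5% of all tested genes. GABPB1, a subunit of the ETS factor that binds many promoters of mitochondrial genes, averaged 2.44 ± 0.31 FPKM in the libraries labelled YAP and 3.55 ± 0.17 FPKM in the Control libraries (log2 change -0.41, limma adjusted p = 0.0070), and it passed after scaling. Its partner GABPA (-0.32, limma adjusted p = 0.042) and the coactivator gene PPRC1 (-0.30, limma adjusted p = 0.020) did not pass after scaling. PPARGC1A had at most 25 reads in any library and was not tested.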
